A study of Mus musculus with 6 samples.

Results

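The genes described here encode the receptors for prostanoids and the proteins that carry prostaglandins across membranes: the 8 receptor genes Ptger1, Ptger2, Ptger3, Ptger4, Ptgir, Ptgfr, Ptgdr and Tbxa2r, and the 2 transporter genes Slco2a1 and Abcc4. They were chosen by symbol, and all 10 were found among the 20494 gene clusters of the authors' deposited table. The RNA came from whole lung of male mice aged 4 months, strain C57BL/6 and untreated, in 6 libraries. Of these, 3 were from mice labelled as lincRNA-Cox2 KO, which lack a long noncoding RNA transcribed beside the cyclooxygenase gene Ptgs2, and 3 from wild type mice. The labels do not describe how the deletion was made, and they name neither a promoter nor a cell type that would restrict it. Single libraries are not in the table: it holds the mean of each genotype and 1 comparison, knockout over wild type.

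Prostanoids are short-lived lipids made from arachidonic acid by a cyclooxygenase and then by a synthase for each end product. Each acts on G protein-coupled receptors of its own, and those for PGE2 form a family that raise cAMP, lower cAMP or release calcium. The lung is a main site where circulating prostaglandins are taken up and destroyed: a transporter brings them into the cell and a dehydrogenase inactivates them there. In lung tissue prostacyclin and thromboxane are known for opposite effects on vessels and platelets, and prostanoids also act on airway muscle and on leukocytes.

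The normalized means summed to 3.71e+07 in wild type and 3.68e+07 in knockout, as mean counts scaled by a size factor per library, so they do not give the depth of single libraries. The check of the genotype was clear in the authors' deposited table: Lincrna-cox2 had a mean of 311 in wild type and 0.666 in knockout. Ptgs2, the inducible cyclooxygenase, stood at 2929 and 298 there, 10.2% of wild type (adjusted p = 9.55e-11 in the authors' DESeq2 comparison). Markers of lung cell types were present in both genotypes, and none of the 50 marker genes examined, of which all were found, was at 0. As the tissue is bulk, fewer cells of a type and less RNA per cell cannot be told apart.

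None of the receptors or transporters that had an adjusted p was called between the genotypes at an adjusted p under 0.05. An adjusted p existed for 9 of the 10, all except Ptgdr. Of the 9, 0 were called in the authors' deposited DESeq2 comparison, where 1.09% of all 16902 tested clusters were called. At such a share, 0 called in a list of this size is not a result about its genes. At an unadjusted p under 0.05 there was 1 member, Ptger1, against 8.47% of all tested clusters. The knockout means of the 9 lay between 86.2% and 106% of the wild type means in the authors' deposited table. The median log2 ratio of the 9 was -0.08, beside -0.00131 over all tested clusters. By the means alone, 8 of the 9 were lower in knockout and 1 was higher, where 50.6% of all tested clusters had the lower mean in knockout.

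Since the table gives a log2 fold change shrunken towards 0, the size of each difference is given here as the ratio of the group means with an interval. The standard error (SE) of the unshrunken log2 ratio was derived as that ratio divided by the deposited Wald statistic, and the 95% interval follows from it. These intervals rest on the dispersions of the authors' model and not on values of single libraries. For 8 of the 9 tested genes the interval lay within a 1.5-fold difference in either direction, and the exception was Ptger3.

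Among the receptors, those for PGE2 are described first. Ptger4 encodes the EP4 receptor, which couples to Gs and raises cAMP, and had the lowest knockout mean relative to wild type of the 9 (kgCluster9258). In the authors' deposited table its mean was 365 in wild type and 315 in knockout, 86.2% of wild type with a 95% interval of 72.2% to 103%. The shrunken log2 fold change there was -0.13 ± 0.08 (SE), with an adjusted p of 0.743 in the authors' DESeq2 comparison. The interval includes equality, and a 1.37-fold difference would have been needed for a call at this gene's SE. That size is the ratio at which the Wald statistic reaches 3.48, the value at the largest p among called clusters.

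Ptger2 encodes EP2, the other Gs-coupled receptor for PGE2, and was the single member with a higher mean in knockout. In the authors' deposited table it had 276 normalized counts in wild type and 293 in knockout, 106% with an interval of 88.1% to 128% (adjusted p = 0.991, DESeq2). Both Gs-coupled PGE2 receptors thus had intervals that include equality, with point values on opposite sides of it. The difference between the 2 genes was not tested.

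Ptger3 encodes EP3, which couples mainly to Gi and lowers cAMP. It was the least abundant tested member, at 99.6 normalized counts in wild type and 95.3 in knockout in the authors' deposited table. Its knockout level was 95.8% of wild type with the widest interval of the 9, 65.2% to 141% (adjusted p = 0.997, DESeq2). At this SE a change smaller than 1.98-fold could not have been called, so a moderate change of Ptger3 was not detectable here.

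Ptger1 encodes EP1, which acts through calcium. Its row (kgCluster28422) had means of 3832 in wild type and 3465 in knockout in the authors' deposited table, 90.4% of wild type with an interval of 82.5% to 99.1%. Ptger1 had the smallest p of the members, 0.0303 before and 0.493 after adjustment in the authors' DESeq2 comparison. Its shrunken log2 fold change was -0.13 ± 0.06 (SE). The interval excludes equality only before adjustment for the number of genes.

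The kit named in the labels does not mark strand, and the counting rule is not given in the sources used here. Reads of genes that overlap on opposite strands can then not be told apart, and the level of the Ptger1 row is given as uncertain for this reason. Other members carry the same limit to the extent of the overlaps given below.

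None of the 10 genes lies on chromosome 1, which carries lincRNA-Cox2 and Ptgs2. In mm10 Ptger1 spans chromosome 8 from 83666678 to 83672753. Ptger2 spans chromosome 14 from 44988195 to 45003820, and Ptgdr lies near it from 44851235 to 44859375. Abcc4 is on the same chromosome from 118482692 to 118706219. Ptger3 spans chromosome 3 from 157566892 to 157645888, Ptger4 chromosome 15 from 5206661 to 5244187, and Tbxa2r chromosome 10 from 81328731 to 81335172. Exons of other genes on the opposite strand cover 16.5% of the exonic bases of Ptger4 (Ttc33 and Gm15937) and 22.1% of those of Ptgdr (Gm16976), and at most 4.85% of those of Ptger2, Ptger3, Ptgir, Ptgfr, Tbxa2r, Slco2a1 and Abcc4.

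The prostacyclin and thromboxane receptors form the vascular pair. Ptgir encodes the prostacyclin receptor IP, coupled to Gs, and lies on chromosome 7 from 16906490 to 16910905. Its means were 429 in wild type and 419 in knockout in the authors' deposited table, 97.8% with an interval of 82.3% to 116% (adjusted p = 0.997, DESeq2). Tbxa2r encodes the thromboxane receptor TP, coupled to Gq, and had means of 474 (wild type) and 436 (knockout) in the authors' deposited table. This was 91.9% of wild type with an interval of 75.0% to 113% (adjusted p = 0.977 in the authors' DESeq2 comparison). Both receptors had knockout means below wild type by less than their intervals can tell from equality.

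Ptgfr encodes FP, the Gq-coupled receptor for PGF2α, on chromosome 3 from 151796502 to 151837630. The authors' deposited table gave means of 906 in wild type and 859 in knockout, 94.8% with an interval of 80.2% to 112% (adjusted p = 0.991, DESeq2). Apart from the uncertain row of Ptger1, it was the receptor with the highest mean count, though not the highest level per length.

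Ptgdr encodes DP1, the Gs-coupled receptor for PGD2, and was close to absent. Its means were 2.69 in wild type and 2.61 in knockout in the authors' deposited table, with no adjusted p. At so low a level the group mean can be split into whole reads of the 3 libraries, named A, B and C here because no replicate number is attached to them. In wild type, libraries A, B and C held 2, 3 and 3 reads. In knockout they held 2, 6 and 0 reads, so that 1 library supplied most of the sum; the log2 ratio of the means was -0.04 with it and -1.46 without it. Each genotype thus had 8 reads in all, with an exact 95% Poisson interval of 3.45 to 15.8 reads that covers counting error only. A difference of Ptgdr was not detectable at this depth, and the gene was outside the genes with an adjusted p.

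The second PGD2 receptor, DP2 or Crth2, is encoded by Ptgdr2 and listed in the table under its older symbol Gpr44. It is not one of the 10 genes, and it had 74.5 (wild type) and 74.3 (knockout) normalized counts in the authors' deposited table (adjusted p = 0.9997, DESeq2).

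Slco2a1 encodes the prostaglandin transporter PGT, which brings PGE2 and related prostaglandins into the cell for breakdown. It spans chromosome 9 from 102988712 to 103096002 and was by far the most abundant member. Its means were 21989 in wild type and 20356 in knockout in the authors' deposited table. The knockout level was 92.6% of wild type with an interval of 83.6% to 102% and a shrunken log2 fold change of -0.09 ± 0.06 (SE). The adjusted p in the authors' DESeq2 comparison was 0.808, and at this gene a 1.20-fold difference would have been needed for a call. Of the 9 tested genes only Ptger1 had a smaller SE.

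Abcc4 encodes MRP4, an ATP-driven exporter that releases prostaglandins and cyclic nucleotides from cells. In the authors' deposited table its means were 865 and 835, or 96.6% of wild type with an interval of 84.8% to 110% (adjusted p = 0.997, DESeq2). Uptake and export genes thus had knockout means below wild type, each with an interval that includes equality.

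**Figure D1:**
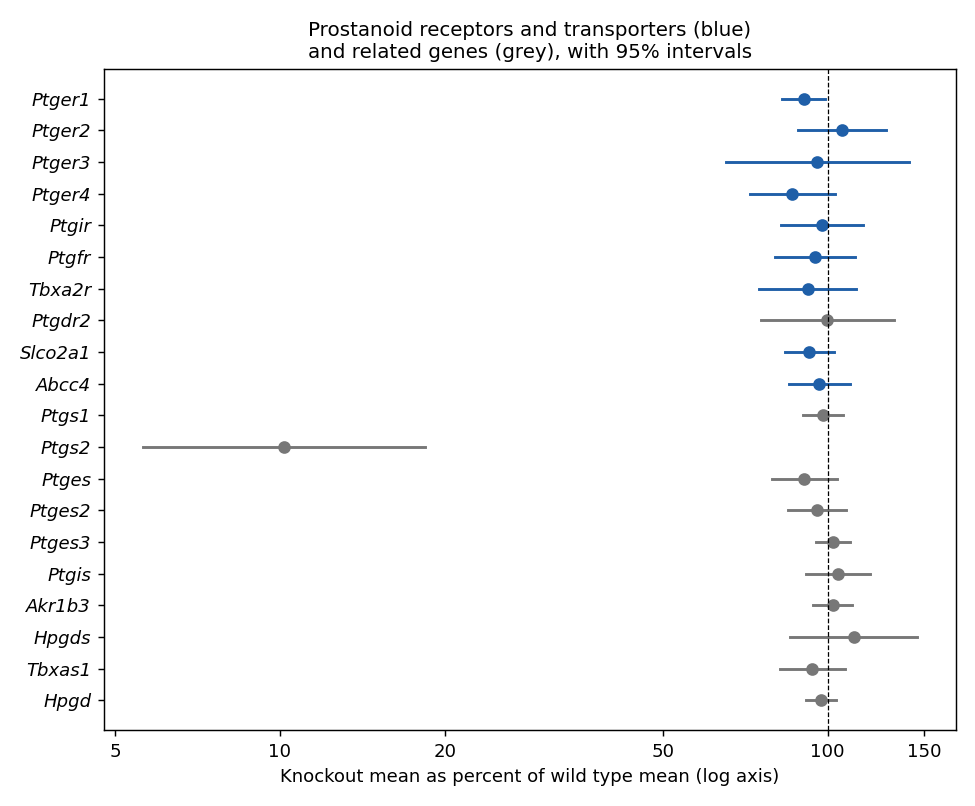
Knockout mean as percent of the wild type mean (log axis) for the 9 tested receptors and transporters (blue) and for Ptgdr2 and prostanoid enzymes (grey). Points are ratios of the authors' means and bars are derived 95% intervals; all blue points lie between 86.2% and 106%, and Ptgs2 lies at 10.2%.

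The difference in Ptgs2 was of another order than any in the receptors and transporters. The derived interval of Ptgs2 ran from 5.62% to 18.4% of wild type, and the lowest bound of a tested member was that of Ptger3 at 65.2%. The intervals of all 9 members lay above that of Ptgs2, as the plot of ratios shows. The 9.83-fold lower mean of Ptgs2 in the authors' deposited table came with an implied relative standard deviation of 37.1% for a single library. That was above the value of 99.8% of tested clusters of like mean. The derivation of the SE was not checked at so large a difference. Simulated true folds went up to 4, and the SE of Ptgs2 was not solved a second way. Its interval and spread are therefore uncertain.

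Levels of different genes were compared as wild type mean normalized counts per kb of the longest annotated transcript. On this scale Slco2a1 led with 3087, above 95.8% of the tested clusters that have a length. Ptger1 followed with 816, which is uncertain as described above, and then Tbxa2r with 247. The exporter Abcc4, Ptgfr and Ptgir stood close together at 151, 137 and 130. Ptger4 had 96.9, Ptger2 74.9 and Ptger3 27.8, and Ptgdr came last with 0.844 normalized counts per kb. The middle of the tested clusters that have a length was 323, and on this scale every receptor other than Ptger1 was below it. That middle was taken for the longest transcript only.

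In that order, neighbours were set apart where their levels per kb differed by more than the sum of their implied standard deviations for a single library. By this rule Abcc4 and Ptgfr were not apart, nor were Ptgfr and Ptgir. The other neighbours were apart, and the largest step between tested genes was the 3.78-fold one from Slco2a1 to Ptger1. By RNA level the uptake gene Slco2a1 stood 20.4-fold above the export gene Abcc4 per kb in wild type. That value became 30.6-fold with the median coding transcript length and 52.4-fold with the longest coding length. Transport itself was not measured. With the longest coding length in place of the transcript, Ptgfr moved above Tbxa2r, Ptger2 above Ptger4, and Abcc4 to below both. Slco2a1, Ptger1, Ptger3 and Ptgdr kept their places in the order with either alternative length.

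The receptors were also set beside the enzymes that make each ligand. For prostacyclin, the synthase Ptgis had 1581 normalized counts per kb in wild type and the receptor Ptgir 130. For PGF2α, the reductase Akr1b3, which can form it, had 572 and the receptor Ptgfr 137. In both pairs the receptor was the lower with either alternative length too. For thromboxane the order turned with the length. The synthase Tbxas1 had 125 and the receptor Tbxa2r 247 on the longest transcript, but 399.9 and 257 on the median coding transcript. With the longest coding length Tbxas1 had 357 and Tbxa2r 463, so that the receptor was again the higher. Of the PGE synthases, Ptges3, which is also the co-chaperone p23, had 1925 per kb, the inducible Ptges 383 and Ptges2 143, beside 96.9 for Ptger4, 74.9 for Ptger2, 27.8 for Ptger3 and 816 for the uncertain row of Ptger1. The PGD2 arm had 28.0 for the hematopoietic synthase Hpgds, 3.80 for Ptgds, 0.844 for Ptgdr and 28.2 for Ptgdr2. At the end of the route, the dehydrogenase Hpgd, which inactivates what Slco2a1 brings in, had 11557 per kb, the highest value of these genes.

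**Figure D2:**
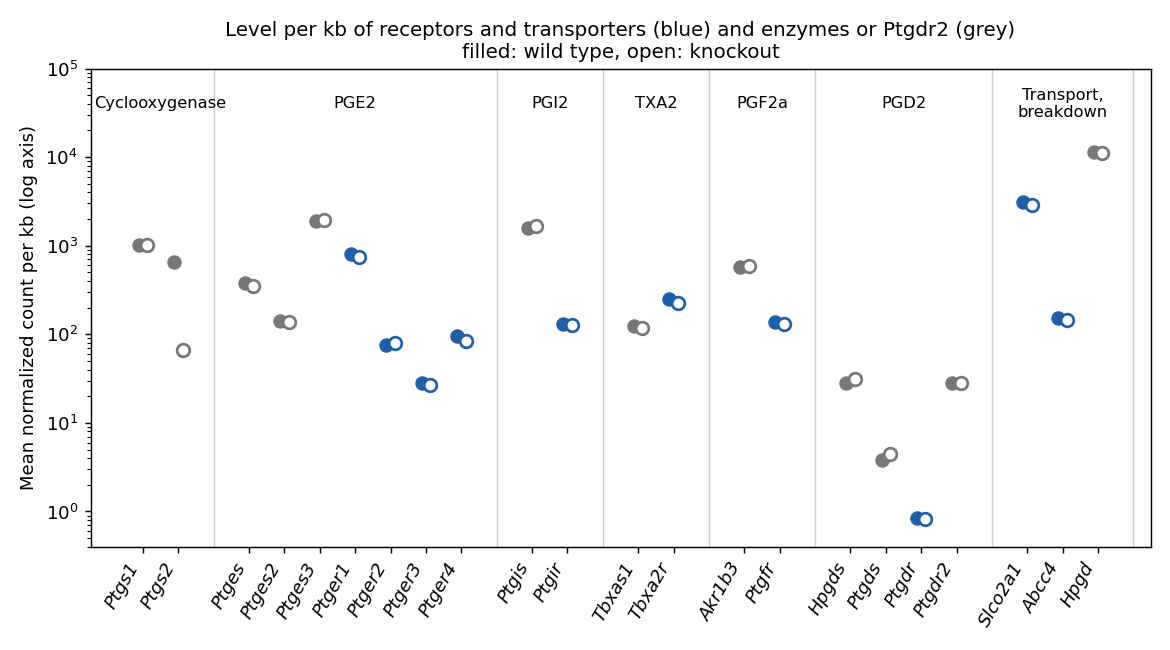
Mean normalized count per kb of the longest transcript (log axis) in wild type (filled) and knockout (open) for receptors and transporters (blue) and for enzymes and Ptgdr2 (grey), ordered by ligand. Only Ptgs2 shows well separated points; Ptgdr is lowest at 0.844 and Hpgd highest at 11557 in wild type.

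Grouped by coupling, the summed levels of the 2 genotypes were close. The 4 Gs-coupled receptors (Ptger2, Ptger4, Ptgir and Ptgdr) summed to 302 normalized counts per kb in wild type and 291 in knockout. The Gq-coupled pair other than Ptger1, Ptgfr and Tbxa2r, summed to 384 and 357, and the Gi-coupled Ptger3 had 27.8 and 26.7. Among Ptger2, Ptger3 and Ptger4, the PGE2 receptors other than Ptger1, Ptger4 made up 48.5% of the summed level in wild type and 44.0% in knockout. Exons on the opposite strand cover 16.5% of the exonic bases of Ptger4, so its share is uncertain too. It also depends on the length: with the longest coding length Ptger2 had 254 normalized counts per kb in wild type and Ptger4 237. These sums are descriptions of group means, and no test was made of them.

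The precision of each comparison differed among the members. The implied relative standard deviation of a single library was 5.69% for Ptger1, 6.35% for Slco2a1 and 8.09% for Abcc4. It lay between 10.4% and 12.7% for Ptgfr, Ptgir, Ptger4, Ptger2 and Tbxa2r, and was 24.0% for Ptger3. Against tested clusters whose mean was within 2-fold, Ptgfr, Tbxa2r and Ptger3 were among the more variable, above 91.4%, 89.6% and 87.4% of them. Slco2a1, Ptgir and Abcc4 were above 78.4%, 66.3% and 60.6%. Ptger1, Ptger4 and Ptger2 were near the middle, above 56.7%, 56.8% and 53.3%. The fold needed for a call ran from 1.18 for Ptger1 to 1.98 for Ptger3, while the median fold among called clusters was 1.40.

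**Figure D3:**
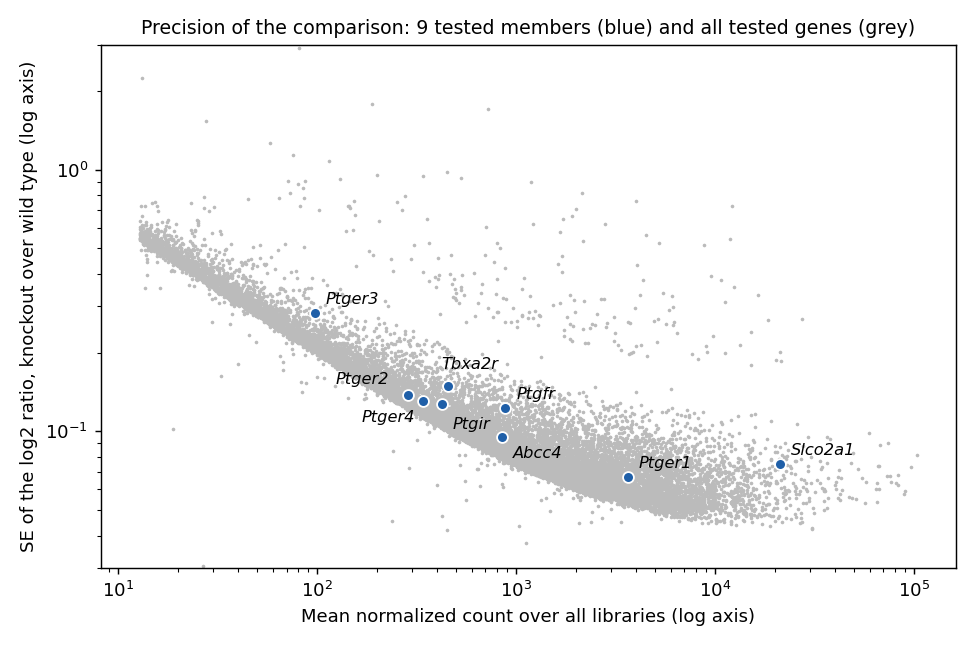
SE of the unshrunken log2 ratio (log axis) against the mean normalized count over all libraries (log axis) for tested genes (grey) and the 9 tested members (blue). Ptger3 has the largest SE of the members, 0.28, and Ptger1 the smallest, 0.07.

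The other genes of the route were described from lists chosen with earlier results of these data known. Of 15 tested enzymes of prostanoid synthesis and breakdown, 1 was called in the authors' deposited DESeq2 comparison, Ptgs2. Of these enzymes 7 had the higher mean in knockout. Over all tested clusters 1.09% were called in that comparison, and 50.6% had the lower mean in knockout. The last enzymes before the receptors had wild type and knockout means in the authors' deposited table of 3332 and 3476 for Ptgis (adjusted p = 0.991, DESeq2). For Tbxas1 they were 571 and 535 (adjusted p = 0.955, DESeq2) and for Ptges 1399 and 1268 (adjusted p = 0.843, DESeq2) in the authors' deposited table. The constitutive cyclooxygenase Ptgs1 had 2954 (wild type) and 2894 (knockout) in the authors' deposited table (adjusted p = 0.997, DESeq2).

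Downstream of the receptors, 0 of 24 tested genes of Gs and cAMP signalling were called in the authors' deposited DESeq2 comparison. Of the 24, 2 were at an unadjusted p under 0.05, Adcy8 and Crtc2, and the median log2 ratio of the list was -0.04. Over all tested clusters 1.09% were called and 8.47% had an unadjusted p under 0.05 in that comparison. At such shares, 0 called in a list of this size is not a result about its genes. Among 13 G protein and phospholipase C genes of the Gq, Gi and G12 routes, again 0 were called, with 1 at an unadjusted p under 0.05. That gene was Plcb1, a phospholipase C that Gq activates, with means of 2755 (wild type) and 2317 (knockout) in the authors' deposited table (log2 ratio -0.25, adjusted p = 0.0544, DESeq2), just above the threshold. Of 13 cAMP phosphodiesterase genes and 7 receptor kinase and arrestin genes none was called, with 1 and 0 below an unadjusted p of 0.05 in the DESeq2 comparison of the authors.

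The families of the transporters and of comparable receptors had no called member either. The counts below stand beside the shares over all tested clusters, 1.09% called and 8.47% at an unadjusted p under 0.05 (DESeq2). In lists this short such shares leave few calls to be found. Among 7 tested genes of the Slco family other than Slco2a1, 0 were called and 0 had an unadjusted p under 0.05 in the authors' deposited DESeq2 comparison. Among 9 tested genes of the ABCC family other than Abcc4 the counts were 0 and 1, the latter being Cftr, the chloride channel of airway epithelium, with means of 518 (wild type) and 649 (knockout) in the authors' deposited table (adjusted p = 0.26, DESeq2). Of 8 other Gs-coupled receptors of lung and 6 tested receptors for other lipid mediators none was called, with 0 and 1 below an unadjusted p of 0.05 in the DESeq2 comparison of the authors. That 1 was Cysltr2, a leukotriene receptor, at 121 and 155 normalized counts in the authors' deposited table (adjusted p = 0.586, DESeq2).

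Cell types of the lung were measured by 10 short marker lists of 5 genes each. Smooth muscle and pericyte markers, of the cells in which TP and FP receptors act on vessel and airway tone, had the lower mean in knockout for 5 of 5 genes, where 50.6% of all tested clusters had it. Of them 0 were called and 2 were below an unadjusted p of 0.05 in the authors' deposited DESeq2 comparison, where 8.47% of all tested clusters were below it. Their summed mean was 28226 in wild type and 24428 in knockout, and their median log2 ratio was -0.22. Fibroblast markers had the lower mean for 4 of 5 genes, with a median log2 ratio of -0.16, sums of 48723 and 44567, 0 called and 0 below an unadjusted p of 0.05 in the authors' DESeq2 comparison. Platelet markers, of cells rich in the TP receptor, summed to 3436 and 3564. The lower mean was in knockout for 3 of 5 of them, with a median log2 ratio of -0.02. Of the platelet markers 0 of 5 were called and 0 were below an unadjusted p of 0.05 in the DESeq2 comparison of the authors. Endothelial markers summed to 134993 and 129846, with the lower mean in knockout for 4 of 5 and a median log2 ratio of -0.02. Of these, 0 of 5 were called and 0 were below an unadjusted p of 0.05 in the same DESeq2 comparison. Neutrophil markers had the higher mean in knockout for 5 of 5 genes, with sums of 6391 and 10139. Of them 4 were called higher in knockout in the authors' deposited DESeq2 comparison (Csf3r, Cxcr2, S100a9 and S100a8). Over all tested clusters 0.592% were called higher. Alveolar macrophage, alveolar type 2, and mast cell and basophil markers had the higher knockout mean for 4 of 5 genes each. Alveolar type 1 markers had the lower mean for 4 of 5 genes and ciliated markers for 3 of 5. In these lists 0 were called, where 1.09% of all tested clusters were called (DESeq2). Below an unadjusted p of 0.05 were, in the order named, 1, 2, 2, 0 and 0 genes. The part of these cell types in the levels of the receptors was not tested.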

How the data were processed

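RNA of whole lung from 3 knockout and 3 wild type mice was measured; the labels give no batch or pairing, and the libraries are taken as separate mice. The submitters' processing notes list the tools DESeq2, STAR 2.5.1b, Bowtie2, bedtools and SAMtools and the build mm10 without saying what each was used for; the counting rule is not given in the sources used here. Per the file headers the authors deposited group means, a signal in units of normalized counts, with a log2 fold change shrunken by a prior and its standard error. The authors' Wald statistic is a score, and each p-value, unadjusted and adjusted, is theirs from DESeq2. No count model was fitted, since no library values are in the table, so the branch of the design for the authors' comparison applied.

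The unshrunken SE is the log2 ratio divided by the Wald statistic. This holds if the prior is 1 normal distribution for all genes: its standard deviation came out between 0.169 and 0.171 (1st to 99th percentile) over 5116 genes. Implied relative standard deviations follow from that SE with 3 libraries per genotype and are model values. Reads of Ptgdr were derived from the worth of 1 read per library (relative size factors 0.961 to 1.02). Positions, lengths and overlaps are from GENCODE M21 on mm10; RefSeq synonyms supplied older symbols. Of 172 list genes, 168 were found, 2 under an older symbol. Work was done in Python 3.11.15 with scipy 1.17.1, and the procedures were tested on simulated data. Alternatives covered the threshold, the filter on low means, the pseudocount of 1, the scaling and the gene length. Genes named are the 10 members, the last enzymes for each ligand, called genes of each list and otherwise those with the smallest p, of which some are given by counts only. The members and lists were chosen with earlier results of these data known, and the derivation of the SE was chosen after the data were seen. One result on a gene beside a member is not reported here.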

Additional observations from a re-analysis of the deposited data

How the results depend on the processing

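The count of called members was 0 with the authors' adjusted p under 0.05 (1 member at an unadjusted p under 0.05), and was also 0 with a threshold of 0.1, with adjustment over all genes with a p-value, and with adjustment over genes whose mean was 50 or more. The direction of each member's difference was the same in 40 of 40 recomputations with 2 forms of the ratio and 2 scalings. No call changed, with adjusted p-values of at least 0.493. The plain ratio repeats the authors' p-values by construction, and Ptgdr had no adjusted p, so these recomputations could not change a call. A pseudocount of 1 is also small beside the means of the tested members. With genes whose mean was 50 or more, the count of called genes was the same in 19 of 19 lists. In 16 of them the filter removed no tested gene, so their counts of genes and medians could not show an effect of it. The median log2 ratio went from -0.04 to 0.00758 for the ABCC list, turning sign. It went from 0.09 to 0.03 for the Slco list, and from 0.36 to 0.19 for the mast cell and basophil list. The threshold of 0.1 was not applied to the lists, where Plcb1 had an adjusted p of 0.0544 (DESeq2). The level per kb moved by more than the implied spread in 14 of 20 cases with another gene length. For the 9 tested members, the SE solved from the shrunken SE and the prior was 0.973 to 1.02 times the one used. This alternative was chosen after seeing the data. For Ptgdr the solved SE was 1.31, against 1.58 for the one used. Leaving out a library was possible for Ptgdr alone, where the log2 ratio ran from -1.46 (without knockout library B) to 0.54 (without knockout library C). No paired analysis was possible because the table holds group means. Low counts limit Ptgdr, and the SE limits Ptger3.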
